A study of Mus musculus with 16 samples.

Results

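The genes described here encode the subunits, assembly factors and activators of the proteasome in mouse liver. They were chosen by name alone: every gene on the array whose name is Psm, a letter from a to g and then a number, with nothing after it. This gave 47 genes, read by 90 probes, of 37074 gene names on the array. The rule used no measured value, but it was set with earlier results of these data known. Of the 47 genes, 46 passed the filter on dim probes (5 or more of the 16 arrays with the spot flagged as well above background) and were tested among 20404 genes, and each of the 46 was well above background on all 16 arrays. Psmb11, the catalytic subunit known from the cortical epithelium of the thymus, reached background-clearing signal on 0 arrays and has no value below. A pair of names that continue after the number was left out. Psmc3ip encodes a recombination protein that is no proteasome subunit. Psme2b has 2 probes that, by the array's own accession lists, also match Psme2, so these genes cannot be told apart, and no probe carried the name Psme2.

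The livers came from 16 male C57BL/6 mice, bought at 6 weeks of age, kept on normal chow for 4 weeks and killed at 10 weeks. None had received antibiotics. The 6 Conv + PBS mice were given the vehicle, reduced PBS (the sample labels call them not transplanted), the 5 Conv + LM mice caecal content of lean chow-fed mice, and the 5 Conv + OM(HFD) mice caecal content of mice made obese by a high-fat diet. Donor material was shared within a group and the mice were housed in groups, so the mice of a group are not fully independent recipients. Conv + PBS serves as the control of both transfers. The comparisons ask whether obese-donor or lean-donor microbiota moved these transcripts in the recipient liver.

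The proteasome degrades proteins tagged with ubiquitin. Its 20S core is a barrel of alpha and beta rings. In the beta rings Psmb6, Psmb7 and Psmb5 encode the constitutive catalytic subunits, known for caspase-like, trypsin-like and chymotrypsin-like cleavage in that order. Interferon induces Psmb9, Psmb10 and Psmb8, whose products take the places of these subunits to form the immunoproteasome, which shapes peptides for presentation on MHC class I. The 19S cap holds 6 ATPases (Psmc1 to Psmc6), which unfold substrates, and non-ATPase subunits (most Psmd genes), which bind and remove ubiquitin. Hepatocytes carry mainly the constitutive form, and macrophages, lymphocytes and other immune cells are rich in the inducible one. In whole liver, fewer cells of a type and less RNA per cell cannot be told apart.

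Psmb8 replaces Psmb5 in the barrel and their genes are related, so the probes that separate them are shown first, with the Psmb9 probe, since the inducible subunits carry the pattern described below. Each is 60 bases long and reads 5′ to 3′ along the transcript. Capitals mark bases that the Psmb8 and Psmb5 probes share when aligned without gaps: 31 of the 50 aligned bases, which leaves 19 that differ. Positions are those of the array design on mm9: chr17:34337771-34337830 on the plus strand for Psmb8, chr14:55233161-55233220 on the minus strand for Psmb5, and chr17:34319174-34319233 on the minus strand for Psmb9.
Psmb8 probe: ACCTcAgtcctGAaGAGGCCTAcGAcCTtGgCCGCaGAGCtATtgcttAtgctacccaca
Psmb5 probe: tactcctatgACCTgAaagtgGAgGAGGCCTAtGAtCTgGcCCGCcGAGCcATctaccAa
Psmb9 probe: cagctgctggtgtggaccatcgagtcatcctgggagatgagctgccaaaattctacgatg

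Values are log2 of the background-corrected spot signal minus the log2 of that array's 75th percentile signal, so 0 is the 75th percentile of the array and a difference of 1 is a doubling. They compare mice for a given gene, not genes with each other. The 75th percentile lay between 223.1 and 323.7 intensity units, 51.89 to 60.1 percent of spots were well above background, and no spot was saturated. Of 6 hepatocyte markers (Alb, Apoa1, Ttr, Apob, Cyp2e1, Serpina1a), 6 were well above background on all arrays. The arrays lay on 2 slides that each held mice of all 3 groups (on slide 1, 3 vehicle mice, 2 lean-donor and 3 obese-donor recipients). Conv + PBS mouse 1 and Conv + OM(HFD) mouse 25 stood apart in macrophage and neutrophil transcripts: Marco, a macrophage scavenger receptor, read 5.32 and 3.43 there against 0.17 to 2.37 in the other 14 mice, and S100a8, a neutrophil protein, 1.73 and 1.49 against -5.31 to -2.90. Results that lean on these mice are given with and without them.

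Transcripts of the proteasome as a whole were at near-equal levels in the 3 groups. For each inducible catalytic subunit the difference between any 2 group means was smaller than the within-group SD pooled over the 3 groups. That SD is a spread of single mice, not the error of a difference between means, and the 95% intervals of these differences all held 0. The heat map of all 46 members shows both features: pale rows for most subunits, and stronger colour for Psmb9 in a few mice of every group.

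**Figure D1:**
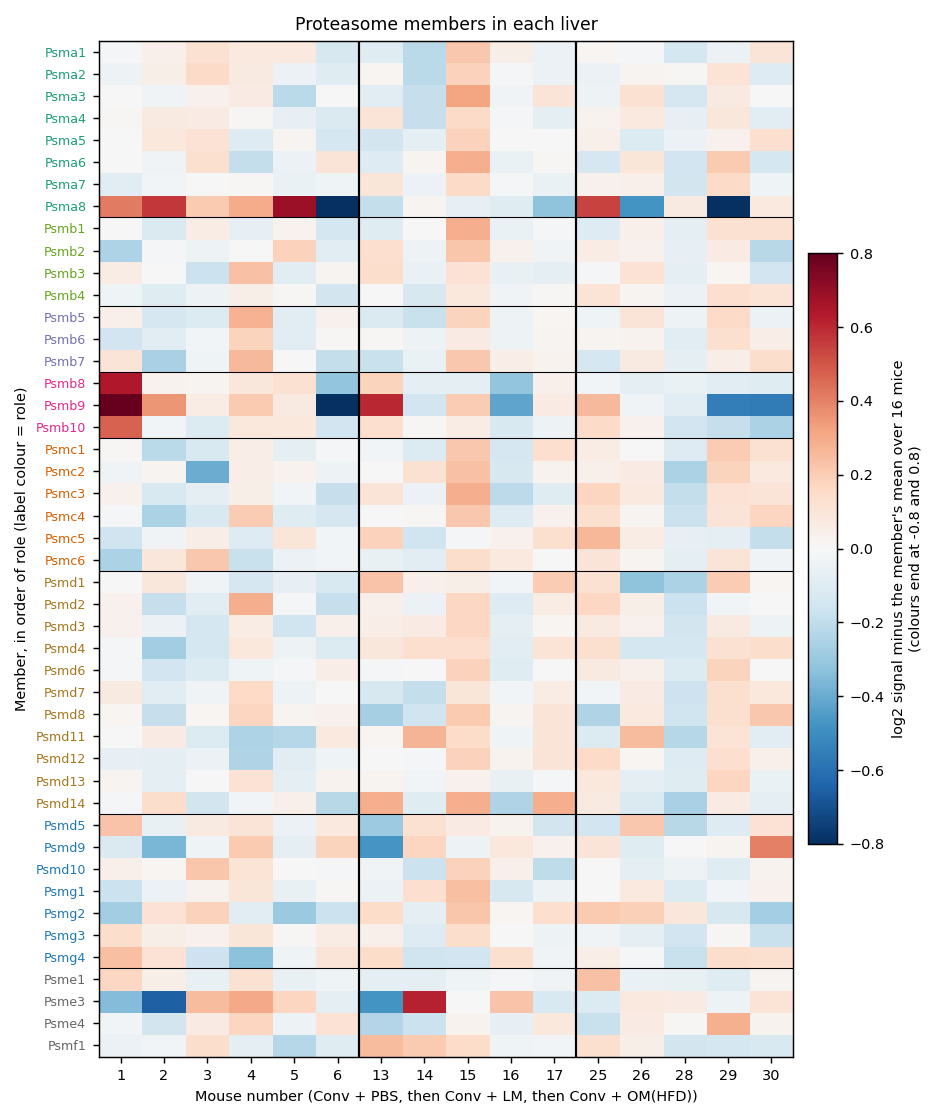
Log2 signal of each of the 46 tested proteasome members (rows, ordered by role) in each of 16 livers (columns, mouse numbers, groups split by vertical lines), minus the member's mean over all mice. Psmb9 is highest in Conv + PBS mouse 1 and lowest in Conv + PBS mouse 6, and Conv + LM mouse 15 is above the mean for most 20S and 19S subunits.

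Psmb9, the inducible caspase-site replacement, had the widest range of the members. Its log2 level ran from 0.77 in Conv + PBS mouse 6 through a median of 2.04 to 3.02 in Conv + PBS mouse 1. In Conv + LM mice 13 to 17 it was 2.51, 1.75, 2.11, 1.48 and 1.97, and in Conv + OM(HFD) mice 25, 26, 28, 29 and 30 it was 2.16, 1.88, 1.82, 1.35 and 1.35. All values of both transfer groups lay inside the range of the vehicle mice. The group means were 2.02 ± 0.72 (SD, n = 6), 1.97 ± 0.39 (n = 5) and 1.71 ± 0.36 (n = 5). Conv + OM(HFD) differed from Conv + PBS by -0.30 on the log2 scale (SE 0.30, 95% interval -0.95 to 0.34, exact permutation p = 0.444), from Conv + LM by -0.25 (interval -0.93 to 0.42, exact permutation p = 0.302), and Conv + LM from Conv + PBS by -0.05 (interval -0.69 to 0.59, exact permutation p = 0.898). Differences, SEs and intervals here and below are those of a limma fit over all genes, whose adjusted p was 0.997 or higher for every member. The first of these rested on mice at both ends: it was -0.55 without Conv + PBS mouse 6, past limma's unadjusted threshold of 0.05, and -0.10 without Conv + PBS mouse 1. With each mouse left out in turn, Conv + OM(HFD) minus Conv + LM ran from -0.37 to -0.12. Conv + LM minus Conv + PBS ran from -0.30 to 0.15.

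Psmb8, the inducible counterpart of Psmb5, had a median of 2.55 and a range of 2.17 to 3.13 in Conv + PBS mice. It read 2.66, 2.42, 2.41, 2.17 and 2.53 in Conv + LM mice 13 to 17 and 2.47, 2.41, 2.43, 2.40 and 2.39 in the Conv + OM(HFD) mice in the order above. The 5 obese-donor recipients thus lay within 0.08 of each other, with an SD of 0.03 against 0.31 in the vehicle group, and inside the range of that group. The vehicle SD leaned on Conv + PBS mouse 1, at 3.13, with the other vehicle mice at 2.17 to 2.61. The difference was -0.17 (SE 0.13, interval -0.44 to 0.11, exact permutation p = 0.329) for Conv + OM(HFD) and -0.15 (SE 0.13, interval -0.43 to 0.13, exact permutation p = 0.385) for Conv + LM against Conv + PBS. Between the transfer groups it was -0.02 (interval -0.31 to 0.27). Without Conv + PBS mouse 1 the differences from vehicle came to -0.06 and -0.04.

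Psmb10, the inducible counterpart of Psmb7, read 5.02 to 5.64 (median 5.20) in Conv + PBS mice. It read 5.31, 5.18, 5.23, 5.05 and 5.13 in Conv + LM and 5.33, 5.21, 5.02, 4.99 and 4.92 in Conv + OM(HFD) mice. The groups overlapped, although 2 of the obese-donor recipients (mice 29 and 30) lay under every other liver. The log2 difference from Conv + PBS was -0.14 (SE 0.11, interval -0.37 to 0.09, exact permutation p = 0.294) in Conv + OM(HFD) and -0.05 (SE 0.11, interval -0.29 to 0.18, exact permutation p = 0.729) in Conv + LM. Without Conv + PBS mouse 1 these were -0.06 and 0.03.

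The constitutive catalytic subunits moved over a smaller range. Psmb5 read 4.57 to 4.98 (median 4.68) in Conv + PBS, 4.59, 4.53, 4.88, 4.66 and 4.72 in Conv + LM, and 4.67, 4.81, 4.66, 4.86 and 4.66 in Conv + OM(HFD). Psmb6 read 6.32 to 6.65 (median 6.42), then 6.48, 6.43, 6.54, 6.44 and 6.50, then 6.50, 6.50, 6.39, 6.60 and 6.53 in the same order of groups. Psmb7 read 3.63 to 4.15 (median 3.87), then 3.71, 3.83, 4.10, 3.94 and 3.92, then 3.75, 3.96, 3.82, 3.94 and 4.03. For each of the 3 genes the highest vehicle mouse was mouse 4 and the highest lean-donor recipient was mouse 15, neither of which stood out in the inducible genes. Against Conv + PBS, the log2 differences in Conv + OM(HFD) were 0.02 (interval -0.17 to 0.21) for Psmb5, 0.05 (interval -0.09 to 0.20) for Psmb6 and 0.03 (interval -0.18 to 0.24) for Psmb7. In Conv + LM they were -0.03, 0.03 and 0.03. A dimmer probe of Psmb6, also well above background on all arrays, gave -0.03 in Conv + OM(HFD) and -0.04 in Conv + LM. Smaller changes than these intervals allow were not detectable with 5 and 6 mice.

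**Figure D2:**
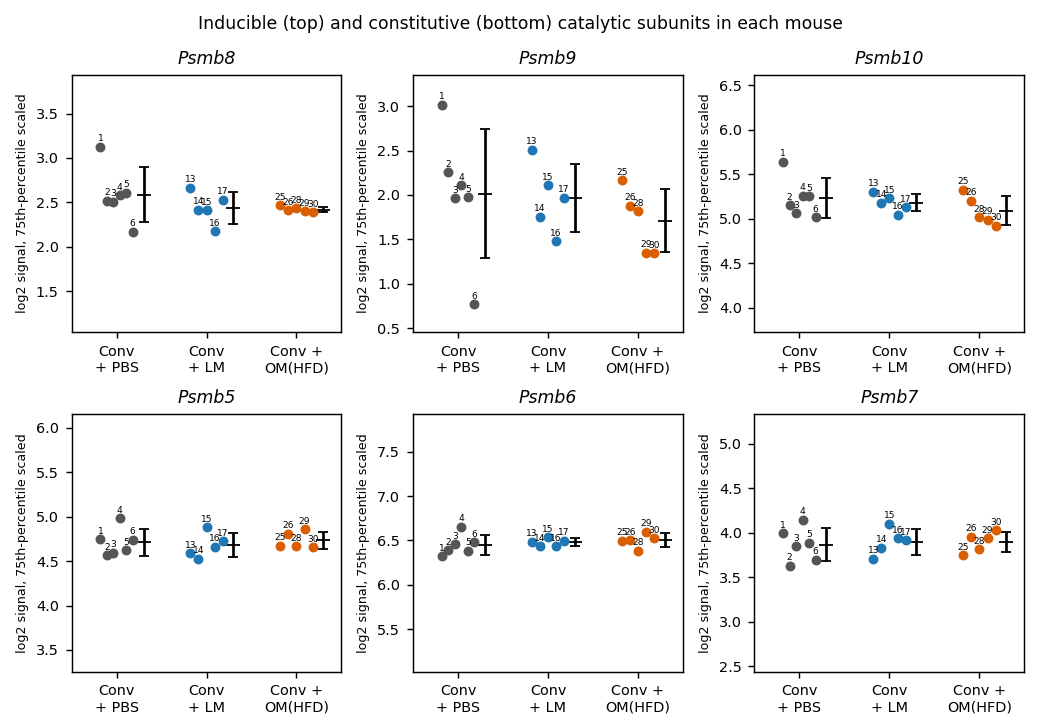
Log2 signal (scaled to each array's 75th percentile) of the inducible subunits Psmb8, Psmb9 and Psmb10 (top) and the constitutive subunits Psmb5, Psmb6 and Psmb7 (bottom) in each mouse, numbered, with group mean ± SD (black); every panel spans the same log2 range. The groups overlap in all 6 panels, and Conv + PBS mice 1 and 6 set the range for Psmb9.

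An immunoproteasome score was formed for each mouse: the mean of Psmb8, Psmb9 and Psmb10 minus the mean of Psmb5, Psmb6 and Psmb7, each gene first centred over the 16 mice. It was 0.74, 0.28, 0.05, -0.11, 0.15 and -0.49 in Conv + PBS mice 1 to 6, so vehicle mice held both ends of the series. In Conv + LM mice it was 0.40, 0.02, -0.09, -0.28 and close to 0 (mouse 17), and in Conv + OM(HFD) mice 0.18, -0.09, -0.03, -0.39 and -0.35. The means were 0.10 ± 0.41 (SD, n = 6), 0.01 ± 0.25 (n = 5) and -0.14 ± 0.24 (n = 5), and no test was run on the score. The within-group SD, a spread of single mice and not the error of a difference between means, was 0.32. Conv + OM(HFD) minus Conv + PBS was -0.24, and -0.11 without Conv + PBS mouse 1. Within slide 1 and slide 2 it was -0.22 and -0.29. Conv + LM minus Conv + PBS was -0.09, with 0.05 on slide 1, -0.17 on slide 2 and 0.03 without Conv + PBS mouse 1. Conv + OM(HFD) minus Conv + LM was -0.15 (-0.28 and -0.12 within the slides).

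Over all members, 0 of 46 passed an adjusted p of 0.05 in any comparison by limma with Benjamini-Hochberg adjustment over 20404 genes, nor did any other gene (0% called in each of the 3 comparisons). At an unadjusted limma p under 0.05, Conv + OM(HFD) against Conv + PBS gave 1 member of 46, a share of 2.17%, where 3.27% of all genes passed (1.53% higher and 1.74% lower). Conv + LM against Conv + PBS gave 1 of 46, also 2.17%, where 3.95% of all genes passed (1.72% higher and 2.23% lower). Conv + OM(HFD) against Conv + LM gave 0 of 46, where 2.71% passed (1.56% higher and 1.15% lower). At the same threshold, the plain unpaired test of the study's methods gave 3 members (Psmb4, Psmd12 and Psmg3) in Conv + OM(HFD) against Conv + PBS. That is 6.52%, where 3.11% of all genes passed. In Conv + LM against Conv + PBS it gave 3 (Psmd1, Psmd4 and Psmd12), also 6.52%, where 3.72% did. Between the transfers it gave 0, where 3.02% did, and after adjustment it gave 0 members. Mice of the groups did not overlap for 1, 1 and 0 members (2.17%, 2.17% and 0%), and for 0.24%, 0.279% and 0.466% of all genes. The median log2 fold change of the members was 0.02, 0.04 and -0.0049 in these comparisons, and that of all genes tested -0.00038, -0.01 and 0.0087. A fold change above 0 was found for 31, 28 and 20 of the 46 members (67.4%, 60.9% and 43.5%), against 49.8%, 45.9% and 52.6% of all genes. The log2 difference was under 0.2 in size for 44, 45 and 45 of the 46 members, and for 16184, 15565 and 15635 of the 20404 genes.

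**Figure D3:**
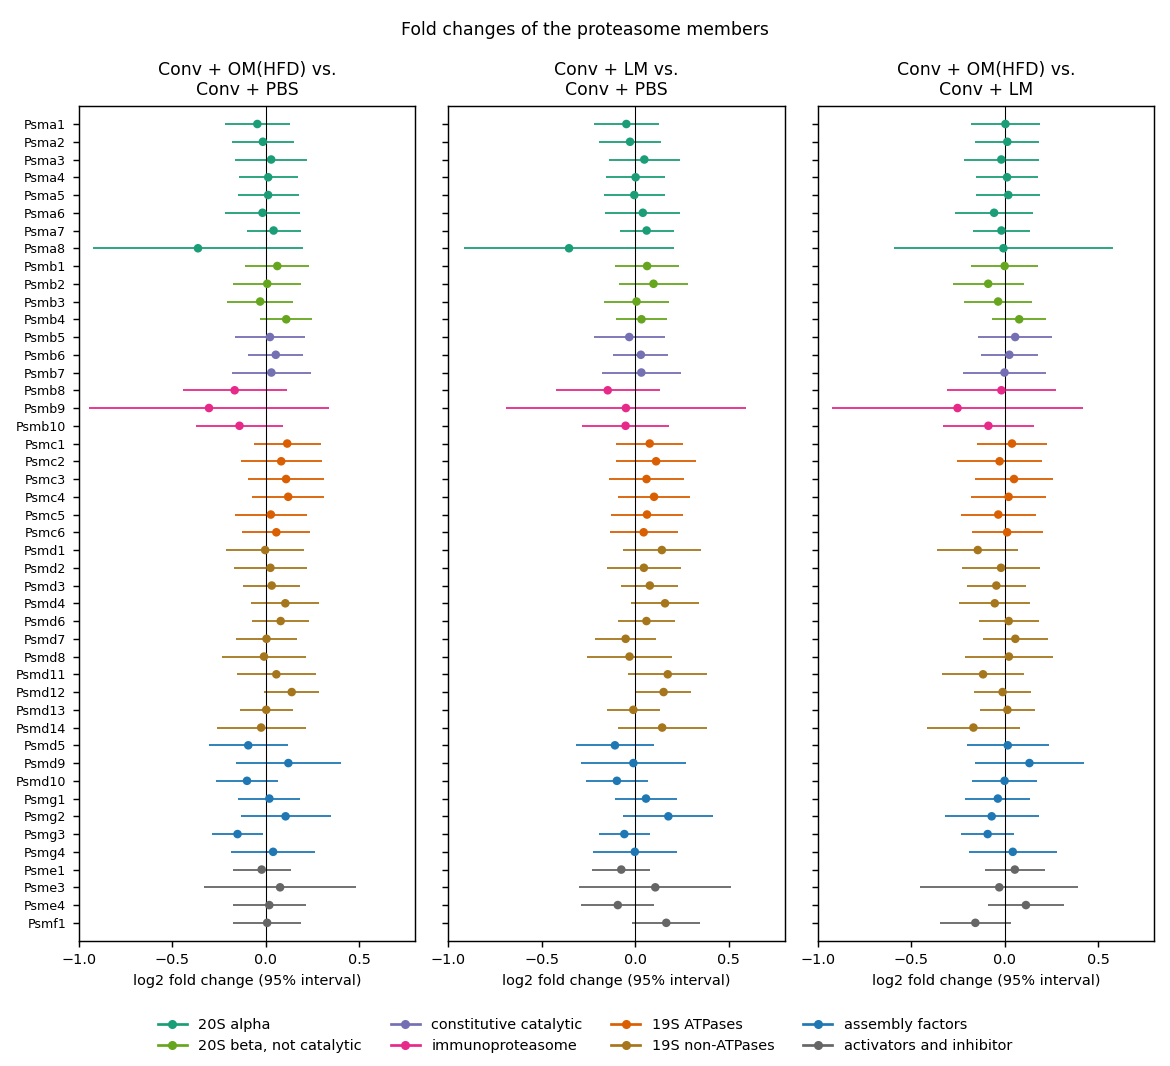
Log2 fold change (points) with 95% interval (lines, limma) of the 46 tested members in the 3 comparisons, coloured by role. Intervals of 2 members miss 0, Psmg3 in Conv + OM(HFD) vs. Conv + PBS and Psmd12 in Conv + LM vs. Conv + PBS, and the widest intervals are those of Psmb9 and Psma8.

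The member past the unadjusted threshold in Conv + OM(HFD) against Conv + PBS was Psmg3, an assembly chaperone of the alpha ring. It read 2.38 to 2.51 (median 2.42) in Conv + PBS, 2.34, 2.29, 2.21, 2.38 and 2.19 in Conv + OM(HFD), and 2.41, 2.26, 2.50, 2.37 and 2.32 in Conv + LM. The vehicle and obese-donor mice did not overlap, by a margin that vanishes at 2 decimals, and the lean-donor mice overlapped with each. Psmg3 was lower by -0.15 in log2 (SE 0.06, interval -0.29 to -0.01, limma p = 0.0326), with an exact permutation p of 0.00216, the smallest that 5 against 6 mice can give. A dimmer probe of the same gene, also well above background on all arrays, differed by 0.12 the other way (SE 0.12), and the probes' deviations from group means correlated at -0.31 over the 16 mice. With the mean of both probes the difference was -0.01. It also lost the threshold on leaving out Conv + PBS mouse 1 or 4, or Conv + OM(HFD) mouse 28 or 30.

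The member past the threshold in Conv + LM against Conv + PBS was Psmd12, a lid subunit of the 19S cap. It read 4.80 to 5.01 (median 4.97) in Conv + PBS, 5.04, 5.03, 5.22, 5.07 and 5.14 in Conv + LM, and 5.19, 5.05, 4.94, 5.17 and 5.08 in Conv + OM(HFD). All 5 lean-donor recipients lay above all 6 vehicle mice, and the obese-donor mice overlapped with each group. The log2 difference was 0.15 (SE 0.07, interval 0.0047 to 0.30, limma p = 0.0439, adjusted p = 0.997, exact permutation p = 0.00216), read by its only probe. In Conv + OM(HFD), which shares the vehicle mice, it was 0.14 (SE 0.07, limma p = 0.0614, exact permutation p = 0.0281). The difference lost limma's threshold without Conv + PBS mouse 1, 2, 4 or 5, Conv + LM mouse 15, 16 or 17, or Conv + OM(HFD) mouse 26 or 30, with values of 0.12 to 0.17 over all mice left out in turn. It also lost it with slide as a block (0.15), with normexp background correction (0.16), without the filter (0.15), with only the compared mice in the fit (0.15) and within slide 1 (0.07) and slide 2 (0.22).

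Among the alpha subunits, Psma1 to Psma7, which form the outer rings of the barrel, differed from Conv + PBS by -0.04 to 0.04 in Conv + OM(HFD) and -0.05 to 0.06 in Conv + LM. Psma8, the paralog of Psma7 known from testis, was the exception in size: it was dim, at -2.84 to -1.33 (median -1.66) in Conv + PBS, -2.21, -1.99, -2.08, -2.11 and -2.34 in Conv + LM, and -1.48, -2.49, -1.94, -2.92 and -1.94 in Conv + OM(HFD). Its differences from vehicle were the lowest of the members in both transfers, -0.36 (SE 0.26, exact permutation p = 0.279) and -0.35 (SE 0.26, exact permutation p = 0.188). They passed the unadjusted threshold without Conv + PBS mouse 6, the lowest vehicle mouse, at -0.57 and -0.56. With each mouse left out in turn they ran from -0.57 to -0.17 and from -0.56 to -0.26. The slides differed in size: Conv + OM(HFD) minus Conv + PBS was -0.26 within slide 1 and -0.65 within slide 2, and Conv + LM minus Conv + PBS was -0.57, past the unadjusted threshold, and -0.12. The non-catalytic beta subunits Psmb1 to Psmb4 differed by -0.03 to 0.11 and 0.0066 to 0.10 from Conv + PBS. Psmb4 gave the largest of these in Conv + OM(HFD), 0.11 (limma p = 0.110, exact permutation p = 0.0433). A dimmer probe of Psmb4, also well above background on all arrays, gave 0.05 (SE 0.09).

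By the brightest probe of each gene, the 6 ATPases of the 19S cap lay above Conv + PBS in both transfers, by 0.03 (Psmc5) to 0.12 (Psmc4) in Conv + OM(HFD) and by 0.04 (Psmc6) to 0.11 (Psmc2) in Conv + LM. None passed the test (smallest limma p 0.193 and 0.288, smallest exact permutation p 0.108 and 0.262), and both rows of differences use the same 6 vehicle mice. A dimmer probe of Psmc2, also well above background on all arrays, lay below vehicle, at -0.04 in Conv + OM(HFD) and -0.17 in Conv + LM. Between the transfers they differed by -0.04 to 0.05. The 11 non-ATPase subunits ran from -0.02 to 0.14 in Conv + OM(HFD) and from -0.05 to 0.17 in Conv + LM, each with 8 of 11 above 0. Behind Psmd12, the smallest limma p values among them in the lean-donor comparison were those of Psmd4, a ubiquitin receptor, at 0.16 (SE 0.09, exact permutation p = 0.039), and Psmd11, a lid subunit whose difference of 0.17 was the highest of the 11 (SE 0.10, exact permutation p = 0.0628). Dimmer probes of Psmd4, also well above background on all arrays, gave 0.07 (SE 0.10) and 0.17 (SE 0.18). Psmd1 differed by 0.14 (SE 0.10, exact permutation p = 0.0433), and its dimmer probes by 0.12, -0.13 and 0.09. The exact permutation p values are unadjusted. Psmd14, the deubiquitinase of the lid, differed by 0.14 by its brightest probe (SE 0.11, exact permutation p = 0.247) and by 0.25 by a dimmer probe (SE 0.10), which passed limma's unadjusted threshold, as did the mean of both.

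Of the 7 assembly factors (the alpha-ring chaperones Psmg1 to Psmg4 and the base chaperones Psmd5, Psmd9 and Psmd10), 4 lay above and 3 below Conv + PBS in Conv + OM(HFD), and 2 above and 5 below in Conv + LM. Psmd10 differed by -0.10 in Conv + OM(HFD) (limma p = 0.218, exact permutation p = 0.0455). Psmg2 had the highest fold change of any member in Conv + LM, 0.18 (SE 0.11, exact permutation p = 0.115), on values of 1.55, 1.33, 1.63, 1.42 and 1.54 against 1.11 to 1.59 (median 1.28) in vehicle mice. In Conv + OM(HFD) it read 1.61, 1.60, 1.49, 1.28 and 1.14. The groups overlapped. The other 2 kept probes of Psmg2 gave 0.0030 and -0.03 in Conv + LM. Psmd9 had the highest fold change between the transfers, 0.13 (SE 0.14, exact permutation p = 0.452): it read 2.0, 1.80, 1.90, 1.92 and 2.30 in Conv + OM(HFD) and 1.42, 2.06, 1.86, 1.98 and 1.93 in Conv + LM, with 1.53 to 2.10 (median 1.84) in Conv + PBS, and these also overlapped. With each mouse left out in turn, this fold change ran from 0.025 to 0.185. The lowest between the transfers was Psmb9, given above.

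Activators open the barrel in place of the 19S cap. Psme1, the alpha chain of the interferon-induced activator PA28, read 5.19 to 5.41 (median 5.25) in Conv + PBS, 5.17, 5.17, 5.21, 5.23 and 5.22 in Conv + LM and 5.48, 5.19, 5.19, 5.15 and 5.27 in Conv + OM(HFD). Its highest value was that of Conv + OM(HFD) mouse 25 and the groups overlapped. It differed from Conv + PBS by -0.02 (interval -0.18 to 0.13) and -0.07 (interval -0.23 to 0.08). The brighter of the probes shared by Psme2b and Psme2, the beta chain, averaged 5.79 ± 0.09 (SD, n = 6), 5.76 ± 0.15 (n = 5) and 5.82 ± 0.10 (n = 5) in vehicle mice, lean-donor and obese-donor recipients, which differ by less than these SDs. Psmf1, an inhibitor of the proteasome, was 0.17 above vehicle in Conv + LM (SE 0.09, exact permutation p = 0.0519) and 0.01 in Conv + OM(HFD). Psme3, the nuclear activator, ran from 4.63 to 5.58 in Conv + PBS and from 4.80 to 5.90 in Conv + LM (SD 0.38 and 0.41), and from 5.17 to 5.39 in Conv + OM(HFD) (SD 0.09).

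Most proteasome transcripts varied little from mouse to mouse. The within-group SD had a median of 0.13 over the 46 members and 0.24 over all 20404 genes, and 43 of the 46 lay under the latter. The 3 above it were Psmb9 (0.54, wider than 86.8% of genes tested), Psma8 (0.46) and Psme3 (0.33). Psmb8 (0.22) and Psmb10 (0.18) followed in the fifth and eighth place among the members, while Psmb5, Psmb6 and Psmb7 stood at 0.13, 0.09 and 0.16. Brightness differs between these groups of probes, and its part in the spread was not tested.

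**Figure D4:**
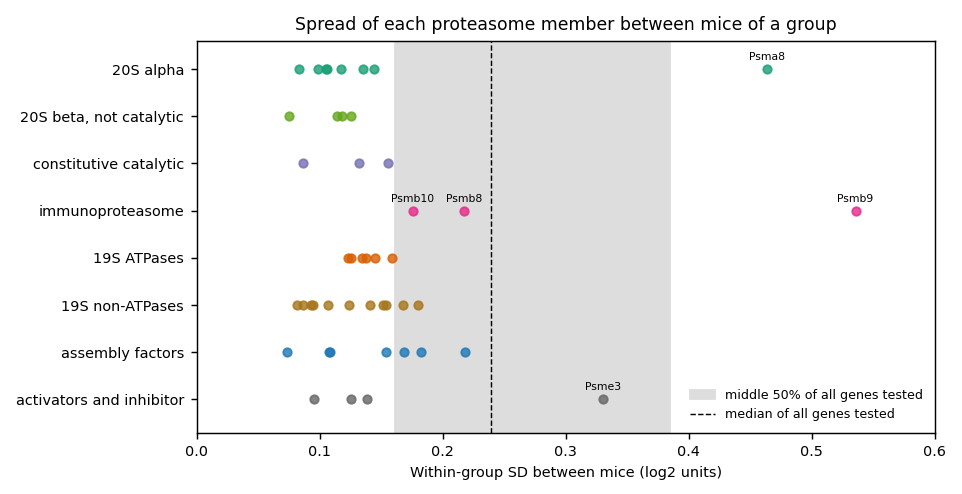
Within-group SD between mice (log2 units, pooled over 3 groups) of each of the 46 tested members by role, with the median (dashed) and middle 50% (grey) of 20404 genes. Psmb9, Psma8 and Psme3 lie right of the dashed line, and the other 43 lie left of it.

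The inducible subunits followed each other across mice. For 14 pairs of genes, deviations from the group means were correlated over 16 mice, with 100000 permutations within groups and Benjamini-Hochberg adjustment over the 14 pairs. Psmb8 and Psmb9 gave r = 0.89 (permutation p = 0.00162, adjusted 0.00567) and rho = 0.69 (permutation p = 0.00685, adjusted 0.024). Psmb8 and Psmb10 gave r = 0.81 (permutation p = 0.00019, adjusted 0.00133) and rho = 0.79 (permutation p = 0.00051, adjusted 0.00238), and Psmb9 and Psmb10 r = 0.84 (permutation p = 0.00106, adjusted 0.00495) and rho = 0.84 (permutation p = 0.00028, adjusted 0.00196). Each of the 3 pairs was correlated within either slide, at 0.60 to 0.74 over the 8 mice of slide 1 and 0.91 to 0.97 over the 8 of slide 2. Without the 2 mice farthest from the median, Conv + PBS mice 1 and 6 in each case, r was 0.70 (permutation p = 0.0151), 0.54 (p = 0.00541 by permutation) and 0.79 (permutation p = 0.00368) over 14 mice.

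Across the inducible and constitutive partners, Psmb8 and Psmb5 gave r = 0.01 (permutation p = 0.972, adjusted 0.972) and rho = 0.15 (permutation p = 0.632, adjusted 0.68). Psmb9 and Psmb6 gave r = -0.29 (permutation p = 0.386, adjusted 0.45) and rho = -0.37 (permutation p = 0.194, adjusted 0.312), and Psmb10 and Psmb7 r = 0.14 (permutation p = 0.678, adjusted 0.73) and rho = 0.14 (permutation p = 0.627, adjusted 0.68). Without the 2 farthest mice these were -0.04, -0.05 and 0.17. The slides disagreed for some of them: Psmb8 and Psmb5 stood at 0.92 within slide 1 and 0.06 within slide 2, and Psmb10 and Psmb7 at -0.53 and 0.55. Whether r differs between these pairs and the inducible pairs was not tested.

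The constitutive catalytic genes were correlated with each other less evenly. Psmb5 and Psmb6 gave r = 0.69 (permutation p = 0.00844, adjusted 0.0169) and rho = 0.55 (permutation p = 0.0375, adjusted 0.0875), Psmb5 and Psmb7 r = 0.72 (permutation p = 0.00545, adjusted 0.015) and rho = 0.67 (permutation p = 0.0105, adjusted 0.0293), and Psmb6 and Psmb7 r = 0.45 (permutation p = 0.14, adjusted 0.197) and rho = 0.37 (permutation p = 0.2, adjusted 0.312). The first and second of these were lower without Conv + PBS mouse 4 and Conv + LM mouse 15, at 0.34 (permutation p = 0.298) and 0.41 (permutation p = 0.172). Within slide 1 they were 0.15 and 0.04, and within slide 2, which held both mice, 0.81 and 0.78. Psmb5, Psmb6 and Psmb7 averaged 0.19, 0.06 and 0.15 higher on slide 2. With deviations taken within group and slide, r was 0.73 and 0.59, and neither passed the adjusted threshold. Neither passed it by quantile normalisation (0.42 and 0.61) or in the processed table (0.34 and 0.59). For Psmb6 and Psmb7, r was 0.35 without the 2 farthest mice (permutation p = 0.233), 0.30 within slide 1 and 0.38 within slide 2. It ran from 0.10 to 0.64 with each mouse left out in turn. Over the other settings it ran from -0.20 to 0.67, so its sign was not stable. As a description over all 465 pairs of the 31 other 20S and 19S subunits (without the inducible genes and Psma8), which share arrays and scaling, the median r was 0.36 and 150 pairs exceeded 0.5. Between those 31 subunits and the inducible genes the median of 93 pairs was 0.08, and 2 pairs exceeded 0.5. Conv + LM mouse 15 was above the 16-mouse mean for 30 of the 31 subunits and Conv + OM(HFD) mouse 28 for 1 of 31.

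**Figure D5:**
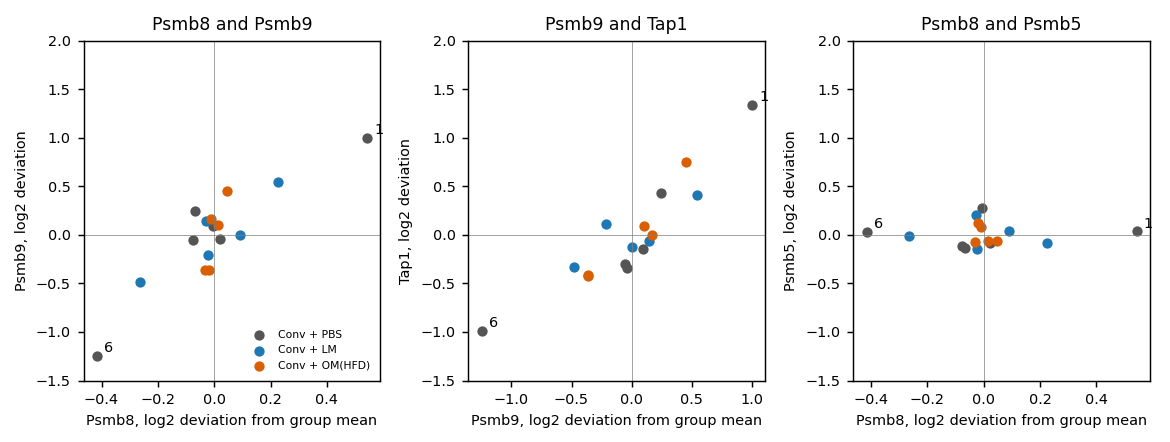
Deviations from the group mean (log2) of Psmb9 against Psmb8, Tap1 against Psmb9 and Psmb5 against Psmb8, one point for each of 16 mice, coloured by group; Conv + PBS mice 1 and 6 are numbered. The first and second panels rise (r = 0.89 and 0.91) and the third is flat (r = 0.01).

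Psmb9 lies next to Tap1, a chain of the transporter that carries proteasome-made peptides to MHC class I. In the RefSeq promoter table (GRCm38.p6) their starts face away from each other with 225 bases between them, and these are shown because the genes moved together: chr17:34187331-34187555, on the minus strand, ending at the Psmb9 start. Capitals mark a GC box (GGGCGG) and a CCAAT box, which here reads on the Tap1 strand.
Psmb9 to Tap1: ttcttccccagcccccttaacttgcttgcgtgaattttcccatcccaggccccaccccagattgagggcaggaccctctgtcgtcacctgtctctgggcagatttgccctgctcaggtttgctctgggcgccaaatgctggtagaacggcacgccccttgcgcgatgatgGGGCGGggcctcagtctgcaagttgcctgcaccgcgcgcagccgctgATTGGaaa
Tap1 gave the highest correlation run, r = 0.91 with Psmb9 (permutation p = 8e-05, adjusted 0.00112), with rho = 0.87 (permutation p = 8e-05, adjusted 0.00112), 0.85 and 0.95 within the slides and 0.84 (permutation p = 0.00042) without Conv + PBS mice 1 and 6. Psmb8 and Tap2, its partner chain, gave r = 0.62 (permutation p = 0.00643, adjusted 0.015) and rho = 0.50 (permutation p = 0.0776, adjusted 0.155), and 0.46 (permutation p = 0.149) without the same pair of mice, so this relation rested on them. Its within-slide values were 0.36 and 0.86. The planned pair of Psme1 and Psme2 was not run, since no probe carried the second name.

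Motif letters were also searched on both strands in the 250 bases before the start, for the 39 members with an entry (41 windows) and all 32851 windows of the table. An interferon-stimulated response element, spelled as GAAA, any 2 bases and GAAA, was found in Psmb3, Psmd4 and Psmd9 (7.32% of member windows, 2.98% of all), and a gamma-activated site written TTCNNNGAA in Psmb8 and Psmg1 (4.88% against 7.02%). The core of the antioxidant response element, TGACNNNGC, was found in Psmb5, Psmb6, Psmc6, Psmd9 and Psmd12 (12.2% against 10.2%). CCAAT lay in 34.1% of member windows and 33.8% of all, and GGGCGG in 51.2% and 32.7%. A match describes the letters of these windows only.

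Other genes of the pathway were taken from fixed lists, which were also set with earlier results of these data known. Of 28 proteasome partners (ubiquitin genes, shuttle factors, the deubiquitinases Uchl5 and Usp14, the maturation factor Pomp, the regulators Nfe2l1 and Nfe2l2 and others), 27 were on the array and tested. Against Conv + PBS, 1 was higher and 2 were lower at an unadjusted limma p under 0.05 in Conv + OM(HFD), where 3.27% of all genes passed, and 0 of 27 passed in Conv + LM, where 3.95% did. Ufd1l, a cofactor that brings ubiquitinated proteins to Vcp, was at 0.27, Ube3c, a ubiquitin ligase bound to the proteasome, at -0.19 and Nfe2l2, a stress-response factor, at -0.24. The median of the list was -0.00040 and -0.02. Between the transfers 2 of 27 were higher, where 2.71% of all genes passed, Ufd1l at 0.28 and the shuttle factor Ubqln2 at 0.22. None passed the adjusted threshold, and the first count became 0 or 1 in 7 and the second in 6 of the other settings. Of 13 antigen-processing and interferon genes, a list that also holds the member Psme1, 12 were tested, 0 passed the unadjusted threshold in any of the 3 comparisons, and the medians were -0.07, -0.05 and 0.01.

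Some of these genes varied with the inducible subunits from mouse to mouse. As a description over 16 mice, r with the mean of the 3 inducible genes ran from -0.22 (Erap1, which trims peptides) to 0.92 (Tap1) over the 12 genes. The mean correlated with Tap1 at 0.92, Nlrc5 (the MHC class I transactivator) at 0.76 and Irf1 (an interferon regulatory factor) at 0.64, and without Conv + PBS mouse 1 at 0.85, 0.53 and 0.22. The class I chains H2-K1 and H2-D1 and their partner B2m stood at 0.35, 0.42 and 0.34, and at -0.29, -0.07 and 0.22 without that mouse. In that mouse Irf1 read 3.63 against 2.06 to 2.79 in the other 15.

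Macrophage markers were highest in Conv + PBS mouse 1, where the inducible subunits were highest too. The macrophage list (Adgre1, Clec4f, Cd68, Cd5l, Marco; 5 of 5 well above background on all arrays) had a summed level, relative to the 75th percentile signal, of 23.4 to 133.7 in Conv + PBS, 18.8 to 28.7 in Conv + LM and 21.4 to 60.6 in Conv + OM(HFD). The top values were those of Conv + PBS mouse 1 and Conv + OM(HFD) mouse 25, and the lowest, 18.8, was that of Conv + LM mouse 13, whose immunoproteasome score of 0.40 was second to that of Conv + PBS mouse 1. The inducible genes were high in the first of these mice (score 0.74) and less so in the other (score 0.18), whose Psmb8, Psmb9 and Psmb10 were each the highest of its group, with Psmb10 second to mouse 1 among all mice and Psmb8, at 2.47, below 5 of the 6 vehicle mice. The 5 macrophage genes correlated with the inducible mean at 0.50 (Marco) to 0.77 (Cd68), and at -0.04 to 0.54 without Conv + PBS mouse 1. The leukocyte list (4 of 7 well above background on all arrays, and Ms4a1 and S100a8 on 12 and 14) summed to 10.3 to 14.6, 9.90 to 12.6 and 12.0 to 15.2 in the same order of groups, and its members did not follow the inducible mean alike: r was 0.66 for Nkg7, 0.59 for S100a8, 0.12 for Itgam and -0.04 for Ms4a1, and without Conv + PBS mouse 1 it was 0.39, 0.23, 0.14 and -0.0074. The endothelial list (3 of 3) summed to 6.92 to 9.47, 7.31 to 8.36 and 6.46 to 8.91. Ptprc, the pan-leukocyte marker CD45, was lowest in Conv + PBS mouse 1 (2.20) and gave r = -0.53, -0.49 and -0.38 with Psmb8, Psmb9 and Psmb10 (permutation p = 0.102, 0.138 and 0.259, adjusted 0.178, 0.197 and 0.329). Its rho was -0.06, -0.31 and -0.16 (permutation p = 0.838, 0.289 and 0.607, adjusted 0.838, 0.405 and 0.68), and r without the 2 farthest mice was 0.13, 0.00022 and 0.34. Within the slides r was 0.09, 0.07 and 0.27 on slide 1 and -0.80, -0.77 and -0.86 on slide 2. The part of macrophage number or state in the inducible subunits was not tested. With Conv + PBS mouse 1 and Conv + OM(HFD) mouse 25 both left out, the score difference was -0.19 for Conv + OM(HFD) and 0.03 for Conv + LM against Conv + PBS, and 0 of 46 members passed the unadjusted threshold in any of the 3 comparisons.

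Probes of the same gene set a limit on small differences. Of 25 members with over 1 kept probe, 13, 12 and 10 had probes of opposite sign in the 3 comparisons, and the probes' deviations across mice correlated with a median of 0.33 over genes, above 0.5 for 6 of 25. Psmb8, Psmb9 and Psmb10 rested on 1 kept probe each.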

How the data were processed

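Liver RNA of 16 mice was labelled with Cy3 and hybridised to 1-colour Agilent mouse arrays. The authors scanned and extracted them with Agilent Feature Extraction 10.10.1.1, and the deposited scanner files hold spot intensity, background-subtracted and detrended within each array, with probe positions on mm9. The deposited processed table holds log2 values, whose ranks equal the median spot intensity and which were quantile normalised between arrays. It was used as an alternative, and the build of any other step is not given in the sources used here.

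Processed intensities were divided by each array's 75th percentile over non-control spots and taken as log2. Outlier spots were left out, spots of a probe averaged, and probes kept when well above background on at least 5 of 16 arrays (30664 probes). The probe with the highest mean stood for its gene. All 3 groups entered 1 limma fit (R 4.3.3, limma 3.58.1) without covariates, with Benjamini-Hochberg adjustment over 20404 genes. The study's microarray methods name a plain threshold on p. The fit was tested on simulated data. Exact permutation tests (2-sided, on the mean difference) and correlations used Python 3.11.15 and SciPy 1.17.1. Precision is limited by the number of mice, and the p values measure spread between mice that shared donor material.

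The members and the gene lists were chosen with earlier results of these data known. Named with values per mouse are the catalytic subunits, Psme1, members at an unadjusted limma p under 0.05 and the highest and lowest fold change of each comparison. Tried as alternatives were normexp background correction (offset 50), quantile normalisation, the processed table, no filter, probes above background on all arrays, slide as a block, each slide alone, a fit of the compared groups alone, array weights, all probes of a gene averaged, the methods' t-test (unpaired Student), each mouse left out and, chosen after seeing the data, Conv + PBS mouse 1 and Conv + OM(HFD) mouse 25 left out together. Sequences are from the array design and, for promoters, RefSeq (GRCm38.p6). Values of some genes of the antigen-processing and leukocyte lists are not reported here.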

Additional observations from a re-analysis of the deposited data

Results flagged for a closer look

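Of 39 sets of values examined (12 named members and the immunoproteasome score in 3 groups), 2 held a mouse far from the others of its group by Dixon's ratio, and chance alone flags about 5% of such sets. Psma8 in Conv + PBS mouse 6 read -2.84, with the next mouse at -1.81, a gap of 0.684 of the group's range. Psmd12 in Conv + PBS mouse 4 read 4.80, with the next at 4.95, a gap of 0.745 of the range. Without these mice Psma8 differed from Conv + PBS by -0.57 and -0.56 in Conv + OM(HFD) and Conv + LM, and Psmd12 by 0.12 in Conv + LM, short of limma's unadjusted threshold.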

How the results depend on the processing

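The median fold change of the members and the immunoproteasome score moved by less than 1 SD between mice under every alternative, and no member passed the adjusted threshold under any. With each mouse left out in turn, the score difference ran from -0.36 to -0.11 (Conv + OM(HFD) vs. Conv + PBS), -0.21 to 0.03 (Conv + LM vs. Conv + PBS) and -0.22 to -0.05 (Conv + OM(HFD) vs. Conv + LM), and the members' median from 0.0098 to 0.05, -0.0067 to 0.05 and -0.02 to 0.02. Members past the unadjusted threshold numbered 0 to 3, 0 to 3 and 0 to 1. Under the other settings the Conv + OM(HFD) vs. Conv + PBS count of 1 became 0 without a filter, within slide 1, within slide 2, with the mean of all probes and with both mice highest in macrophage and neutrophil transcripts left out (a setting chosen after seeing the data), and 3 by the methods' t-test. The Conv + LM vs. Conv + PBS count of 1 became 0 without a filter, with slide as a block, within slide 2, with only the groups compared and with both mice left out, 2 by quantile normalisation, the processed table and the mean of all probes, and 3 by the t-test. Partner counts of 3 and 2 became 0 or 1 in 7 and 6 settings, 4 in the processed table for Conv + OM(HFD) vs. Conv + LM, and 0 to 3 on leaving mice out. Antigen-processing genes gave 1 (Irf1, Conv + LM vs. Conv + PBS) within slide 1. Correlated pairs past the threshold fell from 7 to 4 with deviations taken within group and slide (the 3 inducible pairs and Psmb9 with Tap1), and to 5 to 7 with a mouse left out. Psmb5 with Psmb7 also lost it by normexp (r = 0.63). Psmb5 with Psmb6 and with Psmb7 lost it by quantile normalisation (0.42 and 0.61) and in the processed table (0.34 and 0.59). With both mice left out, Psmb8 with Tap2 lost it (0.58) and Psmb6 with Psmb7 passed it (0.67).

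Signs of small, uncalled differences turned as follows under the other settings. In Conv + OM(HFD) vs. Conv + PBS these were Psme1 0.087 within slide 1. In Conv + LM vs. Conv + PBS these were Psmb10 0.087, Psmb7 -0.019 and Psmb9 0.067 within slide 1, Psmb5 0.019 with array weights, Psmb6 -0.0048 with the mean of all probes, Psmb10 0.030 and Psmb9 0.15 with both mice left out. In Conv + OM(HFD) vs. Conv + LM these were Psmb7 0.010 by normexp, Psmb7 0.012 by quantile normalisation, Psmb6 -0.030, Psmb7 0.017, Psmb8 0.021 and Psme1 -0.0035 in the processed table, Psmb7 0.029 with slide as a block, Psmb7 0.095 within slide 1, Psmb8 0.034, Psmd9 -0.063 and Psme1 -0.049 within slide 2, Psmb8 0.020 with array weights, Psmb7 0.035 and Psme1 -0.0029 with both mice left out. Leaving out each mouse in turn gave ranges through 0 for Psme1 (-0.078 to 0.0053), Psmb5 (-0.0083 to 0.078) and Psmb7 (-0.017 to 0.087) in Conv + OM(HFD) vs. Conv + PBS, for Psmb10 (-0.094 to 0.030), Psmb9 (-0.30 to 0.15), Psmb7 (-0.018 to 0.088) and Psmb5 (-0.084 to 0.022) in Conv + LM vs. Conv + PBS, for Psmb8 (-0.085 to 0.038), Psmb7 (-0.050 to 0.049), Psme1 (-0.0029 to 0.079) and Psmb6 (-0.00050 to 0.053) in Conv + OM(HFD) vs. Conv + LM. The cause was not tested. No paired analysis was possible because the groups share no replicate numbers. Standard errors were highest for Psmb9, Psma8 and Psme3.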
